A study of Homo sapiens with 8 samples.

Results

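The CYP3A genes, the receptors that control them and the reductase that feeds them electrons were followed in HepG2 cells that overexpress CYP3A4. The 9 genes were taken by symbol from the 60230 genes of the count table: CYP3A4, CYP3A5, CYP3A7 and CYP3A43, the receptor genes NR1I2 (PXR) and NR1I3 (CAR), the CYP2 targets CYP2B6 and CYP2C8, and POR. HepG2 is a human liver tumour line. The study asked whether chemicals used in plastics harm liver cells with much CYP3A4, and measured RNA by sequencing in 8 samples, 2 in each of 4 groups. All groups carried the CYP3A4 transgene and grew in medium with 10% serum and 3 µg/mL blasticidin.

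The control group received 0.2% DMSO. The other groups received compound 4 (metylcresol in the labels), compound 5 (tetrabut) or compound 6 (cyclohexil), all antioxidants of plastics, for 24 h. Compounds 4 and 6 are both methylene-bridged pairs of methylphenols, and they differ in carrying tert-butyl groups (compound 4) or cyclohexyl groups (compound 6). Compound 5 is an ethane-bridged pair of phenols with tert-butyl groups. Each was given at its own IC50 in these cells, so the molar doses differed between compounds, and a comparison of 2 compounds sets those doses side by side as well. Replicates 1 and 2 are day 1 and day 2 of the labels. Replicate 1 of compound 4 and replicate 1 of compound 5 are each marked as merged in their labels. No HepG2 cells without the transgene were analysed here, the promoter of the transgene is not given in the sources used here, and reads of the transgene and of the cells' own CYP3A4 could not be told apart.

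Cytochrome P450 enzymes of the CYP3A family oxidise a large share of drugs and other foreign chemicals in the liver. PXR and CAR are nuclear receptors that sense such chemicals, pair with the retinoid X receptor and bind repeats of short DNA half-sites near CYP3A and CYP2 genes, whose transcription then rises. POR, the NADPH-cytochrome P450 reductase, passes electrons to all P450 enzymes of the endoplasmic reticulum.

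The CYP3A genes lie side by side on chromosome 7 (GRCh38, GENCODE 29): CYP3A5 at chr7:99648194-99680026, CYP3A7 at chr7:99684957-99735196 and CYP3A4 at chr7:99756960-99784265 on the minus strand, and CYP3A43 at chr7:99828013-99866102 on the plus strand. Stretches upstream of 4 of the genes are shown because they hold the receptor half-sites. They run from 250 to 91 bases before the RefSeq start on GRCh38.p14, outside the transcribed region, and capitals mark the half-sites AGGTCA and AGTTCA on either strand.
CYP3A4 (chr7:99784275-99784434, minus strand): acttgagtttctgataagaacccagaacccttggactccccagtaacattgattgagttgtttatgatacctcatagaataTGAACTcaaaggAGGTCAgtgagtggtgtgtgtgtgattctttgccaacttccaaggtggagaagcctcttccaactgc
CYP3A5 (chr7:99680087-99680246, minus strand): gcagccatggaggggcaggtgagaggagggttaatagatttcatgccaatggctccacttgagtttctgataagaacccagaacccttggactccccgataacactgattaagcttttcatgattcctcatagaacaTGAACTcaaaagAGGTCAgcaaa
CYP3A7 (chr7:99735287-99735446, minus strand): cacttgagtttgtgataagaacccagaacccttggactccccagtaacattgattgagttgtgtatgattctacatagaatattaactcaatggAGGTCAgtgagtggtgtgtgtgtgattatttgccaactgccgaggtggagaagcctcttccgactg
CYP2B6 (chr19:40991032-40991191, plus strand): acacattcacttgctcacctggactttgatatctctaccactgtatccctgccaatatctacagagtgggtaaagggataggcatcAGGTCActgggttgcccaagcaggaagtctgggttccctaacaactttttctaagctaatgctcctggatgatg
In CYP3A4 and CYP3A5 the capitals form an everted repeat with 6 bases between the half-sites (TGAACT, any 6 bases, then AGGTCA), the arrangement called ER6, at 169 to 152 bases before the start in CYP3A4 and at 113 to 96 in CYP3A5. Of 35116 promoter windows of 250 bases searched on both strands, 3 held this run (0.0085%): those of CYP3A4 and CYP3A5, and that of ITGB1BP2. In CYP3A7 AGGTCA was present and the other half-site did not match these letters. Single half-sites were common: 12.1% of all windows held AGGTCA and 8.80% held AGTTCA, overlaps with ER6 included. In the windows of CYP3A43, NR1I3 and CYP2C8 neither half-site was found, and 1 of the 2 NR1I2 windows held AGTTCA. A match is a run of letters and not a measured binding site, and the transgene need not carry this promoter.

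The 4 CYP3A genes are so alike that reads can move between them in the quantification. The first 60 coding bases are shown for that reason, with capitals where a gene differs from CYP3A4.
CYP3A4: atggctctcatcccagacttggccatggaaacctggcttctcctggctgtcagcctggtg
CYP3A5: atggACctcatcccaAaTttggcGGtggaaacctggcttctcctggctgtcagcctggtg
CYP3A7: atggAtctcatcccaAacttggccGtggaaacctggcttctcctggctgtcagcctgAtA
CYP3A43: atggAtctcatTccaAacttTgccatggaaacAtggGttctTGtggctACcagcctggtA
In these 60 bases CYP3A5 differed from CYP3A4 at 6, CYP3A7 at 5 and CYP3A43 at 11. Over the whole coding sequence identity with CYP3A4 was 94.6% for CYP3A7, 89.5% for CYP3A5 and 84.4% for CYP3A43. Runs of 31 bases shared with another gene made up 41.2% of the runs in CYP3A7 transcripts, 19.6% in CYP3A4 and 9.18% in CYP3A5. CYP3A4 shared most with CYP3A7 (13.7%), and CYP3A5 shared 2.20% with CYP3A4.

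Totals were between 9472261 and 13308975 estimated counts per sample, so that 3 counts, taken as the limit of detection, stood for 0.225 to 0.317 CPM (counts scaled to a common library total). The replicates of compound 4 were the least alike, with a chi-square per degree of freedom of 18.4 against 5.82 to 9.64. Between its replicates, transcripts over 6 kb were lower (median log2 difference −0.29) and those up to 2 kb higher (0.20) in replicate 2, and the part of this in the results below was not tested. The 10 hepatocyte markers were all detected in every sample, with summed levels of 40354 and 42302 CPM in DMSO and 31710 to 38762 CPM in the treated samples. Against DMSO 1 of them was called higher (TTR) and 3 lower (AFP, APOA1 and TF) after compound 4, 3 lower (the same genes) after compound 5 and 2 lower (APOA1 and TF) after compound 6. Of all genes tested, 6.5% were called higher after compound 4, and 5.42%, 14.2% and 1.6% lower after compounds 4, 5 and 6. With same-numbered samples as a block, both calls after compound 6 were lost (adjusted p = 0.0576 for APOA1 and 0.0547 for TF, edgeR). Of 10 markers of other cell types, 4 to 6 were at 0 in a sample, PTPRC, DCN, LRAT and KRT5 in all samples, and the sum was 28.2 to 39.8 CPM in DMSO and 37.1 to 60.4 CPM after treatment, most of it CD68. Of these markers 2 were tested. CD68 was called higher after compound 4 (log2 change 0.80), and CD14 after compounds 4 and 6 (2.94 and 2.75), where 6.5% and 2.8% of all genes tested were. The CD14 call after compound 6 was lost with same-numbered samples as a block. CD14 passed the filter on low counts only through the samples of compounds 4 and 6, where it was highest, so its rise is a description. The part of these marker levels in the results was not tested, and in bulk RNA fewer cells of a type cannot be told apart from less RNA per cell.

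Of the 9 genes, 6 passed the filter on low counts and were tested among 13404 genes with edgeR's quasi-likelihood test. Changes are log2 fold changes with their standard error (SE), and calls were made at an adjusted p (Benjamini-Hochberg, over all genes tested) under 0.05. Against DMSO, 2 of the 6 rose after compound 4 (CYP3A5 and CYP2B6), 4 rose after compound 5 (CYP3A4, CYP3A5, CYP2B6 and POR), 2 rose after compound 6 (CYP3A5 and CYP2B6), and none was called lower. Of all genes tested, 6.5% were called higher and 5.42% lower after compound 4, 13.9% and 14.2% after compound 5, and 2.8% and 1.6% after compound 6. The treated and DMSO samples did not overlap in 5, 5 and 3 of the 6 genes for compounds 4, 5 and 6, and in 54.6%, 70.1% and 52.9% of all genes tested. The median change of the 6 genes was 0.63, 0.76 and 0.07 in the same order, and that of all genes tested was between −0.03 and 0.0028. The 3 comparisons share the DMSO samples.

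**Figure D1:**
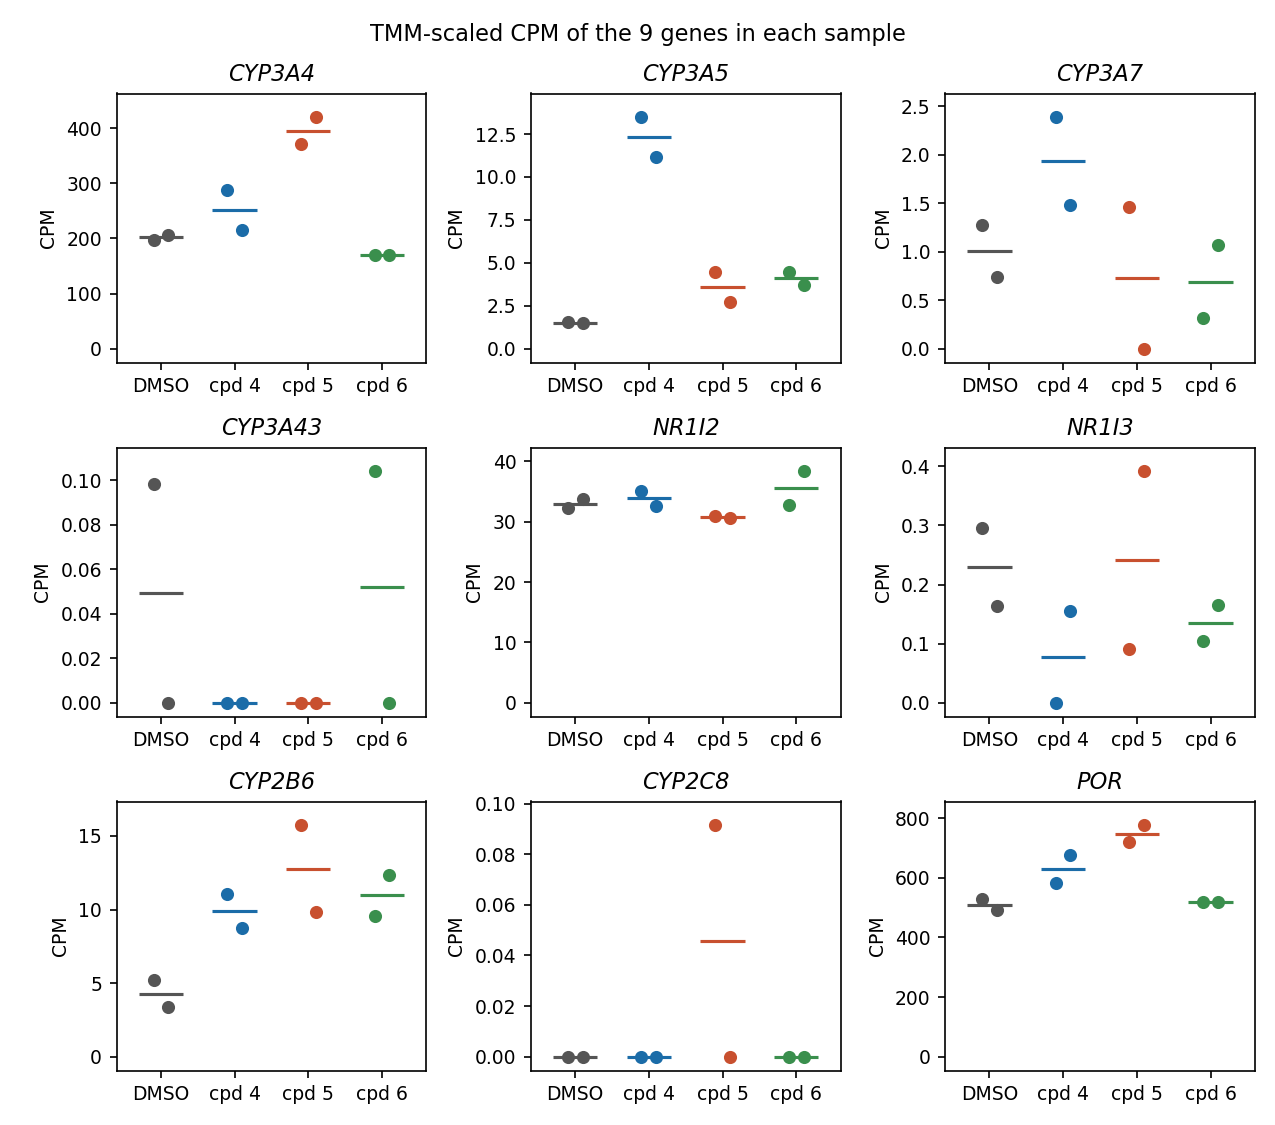
Level of each of the 9 genes in TMM-scaled CPM (vertical axes, linear, each panel with its own scale) in the DMSO, compound 4, compound 5 and compound 6 samples, with 1 point per sample and a line at the group mean. CYP3A4 and POR were highest in the compound 5 samples, CYP3A5 in the compound 4 samples, and CYP3A43, NR1I3 and CYP2C8 stayed under 0.4 CPM in every sample.

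CYP3A4, the gene the cells overexpress and the main drug-oxidising P450 of adult liver, was at 198 and 207 CPM in the DMSO samples. It was at 371 and 421 CPM after compound 5, 287 and 216 CPM after compound 4, and 170 and 171 CPM after compound 6. Both compound 5 samples lay above all other samples, and both compound 6 samples lay below all others. After compound 5 CYP3A4 rose by a log2 change of 0.97 (SE 0.13, adjusted p = 7.24e-04, edgeR), 1.96-fold. After compound 4 the change was 0.31 (95% interval 0.017 to 0.61, adjusted p = 0.162, edgeR) and was not called. Replicate 1 was the higher sample: without replicate 2 of compound 4 it was 0.52 (adjusted p = 0.0163, edgeR), and over all fits without 1 library it ran from 0.092 to 0.52, with adjusted p up to 0.656. After compound 6 the change was −0.25 (95% interval −0.54 to 0.051, adjusted p = 0.344, edgeR), an interval that covers 0.

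Between compounds, CYP3A4 was higher after compound 5 than after compound 6 by 1.22 (SE 0.14, adjusted p = 0.0014, edgeR) and than after compound 4 by 0.66 (SE 0.13, adjusted p = 0.0148, edgeR). The second call was lost without replicate 1 of compound 5 (0.76, adjusted p = 0.0603, edgeR) or without its replicate 2 (0.56, adjusted p = 0.106, edgeR). Compounds 4 and 6, which differ in the tert-butyl and cyclohexyl groups, differed by 0.56 (95% interval 0.26 to 0.86), a difference not called by edgeR (adjusted p = 0.249) and called by DESeq2 (adjusted p = 0.0249). Adjusted p of this difference ran from 0.0017 to 0.519 over the other processing choices.

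CYP3A5, whose enzyme overlaps with CYP3A4 in its substrates and which many adults express little of, was low in DMSO at 1.58 and 1.48 CPM (16 and 18 counts). After compound 4 it was at 13.5 and 11.2 CPM (158 and 143 counts), after compound 5 at 4.49 and 2.75 CPM, and after compound 6 at 4.48 and 3.71 CPM. Every treated sample lay above both DMSO samples, and both compound 4 samples lay above all others. The rise after compound 4 was 3.01 (SE 0.29, 95% interval 2.38 to 3.64, adjusted p = 3.36e-04, edgeR), 8.03-fold, and it stayed called without any 1 library, between 2.86 and 3.15.

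The rises of CYP3A5 with the other compounds were smaller and less firm. After compound 5 the change was 1.23 (SE 0.32, adjusted p = 0.0167, edgeR), which was no longer called without replicate 1 of compound 5 (0.87, adjusted p = 0.123), without DMSO replicate 1 (1.27, adjusted p = 0.0755) or without DMSO replicate 2 (1.20, adjusted p = 0.0841). After compound 6 it was 1.41 (SE 0.32, adjusted p = 0.0355, edgeR), and leaving out any 1 of the compound 6 or DMSO samples ended the call: 1.30 (adjusted p = 0.0746) and 1.56 (adjusted p = 0.175) without replicates 1 and 2 of compound 6, and 1.45 (adjusted p = 0.156) and 1.37 (adjusted p = 0.218) without DMSO replicates 1 and 2. With limma voom on all samples the rise after compound 6 was not called either (1.38, adjusted p = 0.0654). CYP3A5 was lower after compound 5 than after compound 4 by a log2 change of −1.78 (SE 0.25, adjusted p = 0.0054, edgeR). Compound 4 exceeded compound 6 by 1.59 (95% interval 1.05 to 2.14), not called by edgeR (adjusted p = 0.0941) and called by DESeq2 (adjusted p = 0.0076), with adjusted p from 2.53e-08 to 0.104 over the other processing choices. Between compounds 5 and 6 the difference was −0.18 (95% interval −0.80 to 0.43, adjusted p = 0.721, edgeR).

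CYP3A7, the main CYP3A gene of fetal liver, was low, at 1.28 and 0.74 CPM in DMSO (13 and 9 counts). It had 28 and 19 counts after compound 4, 16 and 0 after compound 5, and 3 and 13 after compound 6. The compound 4 samples were the highest 2 of the 8, the compound 5 samples lay on either side of both DMSO samples, and the compound 6 samples overlapped with DMSO. No change was called: 0.95 (95% interval −0.93 to 2.83) after compound 4, −0.51 (−2.67 to 1.65) after compound 5 and −0.46 (−2.63 to 1.71) after compound 6. The change after compound 5 was 0.55 without replicate 2 of that compound and −6.54 (adjusted p = 0.0466, edgeR) without replicate 1, so its sign depended on which sample was kept. The sample with 0 counts had 6 counts in the CYP3A7-CYP3A51P read-through gene, which shares most of its sequence with CYP3A7, and replicate 1 of compound 6 had 7, while the other samples had 0. CYP3A43, a minor member of the family, had 1 count in DMSO replicate 1, 1 count in replicate 1 of compound 6 and 0 in the other samples, which was not tested.

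CYP3A4 held nearly all CYP3A counts, from 94.5% to 99.2% of them in each sample. CYP3A5 held 0.784% (exact Clopper-Pearson interval 0.449 to 1.27%) and 0.709% (0.421 to 1.12%) in DMSO. Its share was 4.46% (3.80 to 5.19%) and 4.89% (4.13 to 5.73%) after compound 4, 1.19% and 0.648% after compound 5, and 2.55% and 2.11% after compound 6. The intervals of both compound 4 samples lay above those of all other samples. These intervals cover counting error only. The sum of all CYP3A counts, which does not depend on how reads were shared among these genes, was 201 and 209 CPM in DMSO, 303 and 228 CPM after compound 4, 377 and 424 CPM after compound 5, and 176 and 175 CPM after compound 6. It rose by 0.97 after compound 5 (adjusted p = 6.94e-04, edgeR), and its changes of 0.37 after compound 4 (adjusted p = 0.0952) and −0.22 after compound 6 (adjusted p = 0.391) were not called. Without replicate 2 of compound 4 the sum was called with that compound too (0.58, adjusted p = 0.0089, edgeR).

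**Figure D2:**
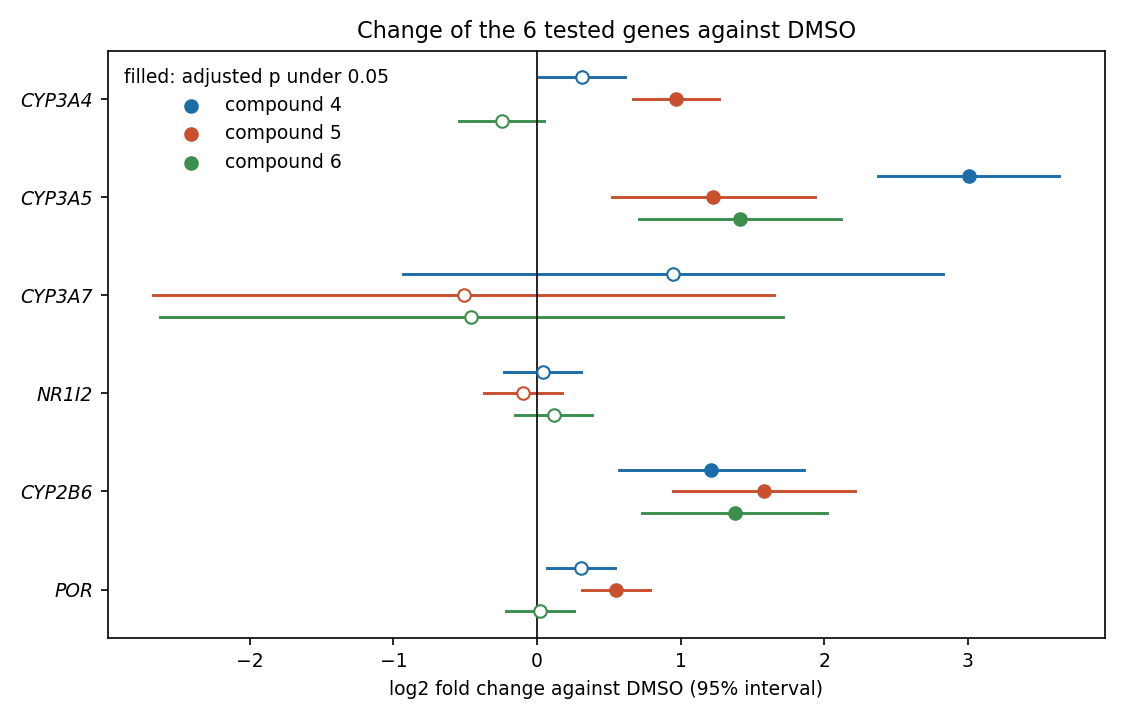
Log2 fold change against DMSO (horizontal axis) with its 95% interval (line) for the 6 tested genes and compounds 4, 5 and 6, filled where the edgeR adjusted p was under 0.05. CYP3A5 and CYP2B6 were filled for every compound, CYP3A4 and POR for compound 5, and the intervals of CYP3A7 and NR1I2 covered 0 throughout.

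NR1I2 (chr3:119780484-119818485, plus strand) encodes PXR, the receptor that drives CYP3A4. It was clearly detected, at 32.2 and 33.7 CPM in DMSO, 35.1 and 32.6 CPM after compound 4, 30.9 and 30.7 CPM after compound 5, and 32.8 and 38.5 CPM after compound 6. All 8 samples lay between 30.7 and 38.5 CPM. The changes of 0.04 (95% interval −0.23 to 0.31), −0.10 (−0.37 to 0.17) and 0.12 (−0.15 to 0.38) after compounds 4, 5 and 6 were not called. NR1I3 (chr1:161229666-161238302, minus strand) encodes CAR, the receptor best known for CYP2B6. It had 3 and 2 counts in DMSO, 0 and 2 after compound 4, 1 and 5 after compound 5, and 1 and 2 after compound 6, which was at or about the limit of detection and was not tested. TOMM40L, which overlaps NR1I3 by 1079 bases on the other strand, had 259 to 374 counts.

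CYP2B6 (chr19:40991250-41018398, plus strand), a P450 that CAR and PXR both induce, was at 5.22 and 3.37 CPM in DMSO. It was at 11.03 and 8.74 CPM after compound 4, 15.8 and 9.81 CPM after compound 5, and 9.59 and 12.4 CPM after compound 6. All 6 treated samples lay above both DMSO samples, and the 3 treated groups overlapped each other. CYP2B6 rose by 1.21 after compound 4 (SE 0.29, adjusted p = 0.0222, edgeR), 1.58 after compound 5 (SE 0.29, adjusted p = 0.0029, edgeR) and 1.38 after compound 6 (SE 0.29, adjusted p = 0.0286, edgeR), that is 2.32-, 2.99- and 2.59-fold. The rise after compound 5 stayed called without any 1 library. The call after compound 4 was lost without its replicate 1 (1.04, adjusted p = 0.0634, edgeR) or without DMSO replicate 2 (0.92, adjusted p = 0.202, edgeR). The call after compound 6 was lost without its replicate 2 (1.18, adjusted p = 0.299), DMSO replicate 1 (1.71, adjusted p = 0.0738) or DMSO replicate 2 (1.08, adjusted p = 0.226, edgeR).

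No difference between compounds was called for CYP2B6: compound 5 minus compound 4 was 0.37 (95% interval −0.20 to 0.93), compound 5 minus compound 6 was 0.21 (−0.36 to 0.77) and compound 4 minus compound 6 was −0.16 (−0.74 to 0.42), intervals that leave room for differences in either direction. CYP2B6 shared 18.7% of its runs of 31 bases with the pseudogene CYP2B7P, which had 0 to 4 counts. CYP2C8 (chr10:95036772-95069497, minus strand), a P450 of adult liver that PXR and CAR also induce, had 1 count in replicate 1 of compound 5 and 0 in the other samples, and was not tested.

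POR (chr7:75899200-75986855, plus strand) was the most abundant of the genes before scaling by length, at 527 and 493 CPM in DMSO. It was at 719 and 778 CPM after compound 5, 582 and 678 CPM after compound 4, and 518 CPM in both compound 6 samples. Both compound 5 samples lay above all others, and both compound 4 samples lay between those and DMSO. POR rose by 0.55 after compound 5 (SE 0.11, adjusted p = 0.0041, edgeR), 1.47-fold. The change after compound 4 was 0.30 (95% interval 0.068 to 0.54, adjusted p = 0.0933, edgeR) and became a call only without its replicate 1 (0.41, adjusted p = 0.0365, edgeR). After compound 6 it was 0.02 (95% interval −0.21 to 0.26).

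POR was higher after compound 5 than after compound 6 by 0.53 (SE 0.11, adjusted p = 0.0146, edgeR). That call was lost without replicate 1 of compound 5 (0.60, adjusted p = 0.0706), its replicate 2 (0.47, adjusted p = 0.110) or replicate 1 of compound 6 (0.53, adjusted p = 0.0919, edgeR). The difference of 0.25 between compounds 5 and 4 was not called (adjusted p = 0.138, edgeR). CYP3A4 CPM divided by POR CPM was 0.376 and 0.419 in DMSO, 0.493 and 0.318 after compound 4, 0.516 and 0.541 after compound 5, and 0.329 in both compound 6 samples. The ratio was thus highest in both compound 5 samples, and the compound 4 samples lay on either side of DMSO.

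Between compounds, 1 of the 6 tested genes was higher (CYP3A4) and 1 lower (CYP3A5) after compound 5 than after compound 4, where 6.91% of all genes were called higher and 7.04% lower. For compound 5 against compound 6, 2 were higher (CYP3A4 and POR), where 4.76% of all genes were called higher. For compound 4 against compound 6 none was called by edgeR, where 0.0448% of all genes were, and limma voom called 0. DESeq2 called 2 of the 6, and 3 (CYP3A4, CYP3A5 and POR) had an unadjusted edgeR p under 0.05. The shares of all genes by these last criteria are not given here, so these counts are a description and cannot be set against 0.0448%.

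**Figure D3:**
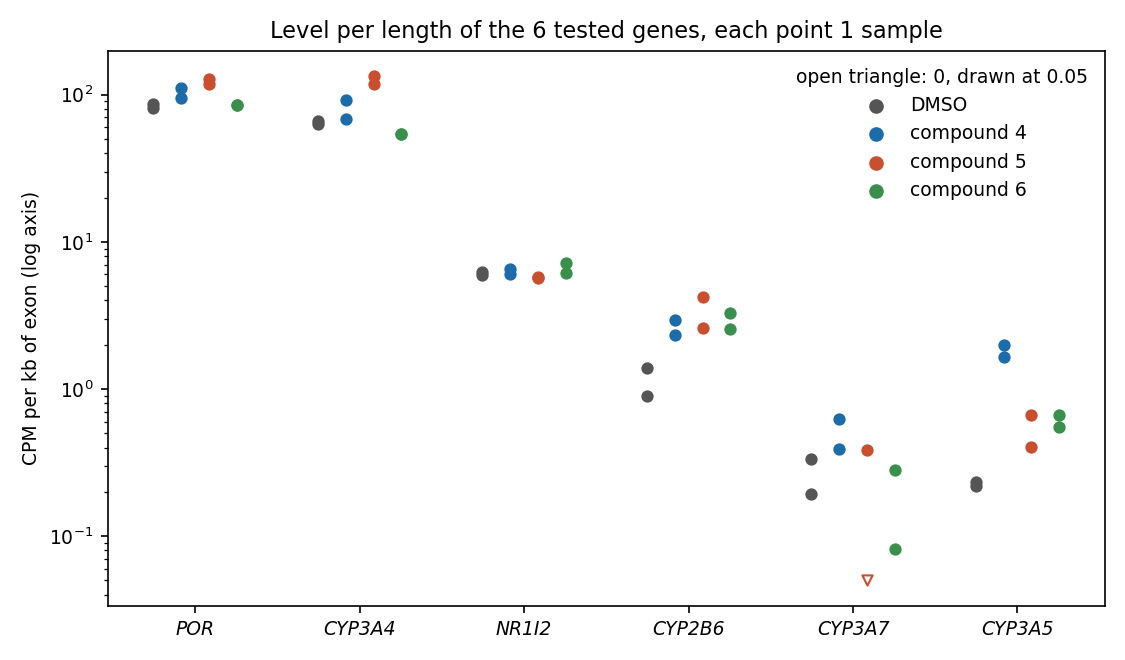
Level per length of the 6 tested genes in CPM per kb of exon (vertical axis, log scale), with 1 point per sample coloured by group. POR and CYP3A4 are the highest in every group, and CYP3A5 and CYP3A7 are the lowest.

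To compare genes with each other, CPM were divided by exon length in kb. For CYP3A4 this is the length of the annotated gene, and the transcript length of the transgene is not given in the sources used here. The order of CYP3A4 and POR per length is therefore uncertain in every group. In DMSO the order was POR at 83.5 ± 3.96 (SD, n = 2), CYP3A4 at 64.4 ± 1.90, NR1I2 at 6.12 ± 0.20, CYP2B6 at 1.14 ± 0.35, CYP3A7 at 0.265 ± 0.10 and CYP3A5 at 0.226 ± 0.010 CPM per kb. CYP3A7 and CYP3A5 did not differ beyond their spread. After compound 5 CYP3A4 (126 ± 11.3 CPM per kb) and POR (122 ± 6.86) did not differ beyond their spread. That order depends on the length used: by the longest transcript POR was above CYP3A4 also after compound 5 (296 against 169 CPM per kb). In the ranking of all 60230 genes by CPM, CYP3A4 stood at 768 in DMSO, 594 after compound 4, 365 after compound 5 and 971 after compound 6, and POR at 239, 190, 163 and 237.

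Over the 8 samples the pattern of log2 CPM most like that of CYP3A4, out of 9314 genes averaging 10 CPM or more, was that of SEPTIN9 (Pearson r = 0.973), MAP1S (0.971), HS6ST1 (0.967), NXF1 (0.965) and MARK2 (0.964). These r are a description over samples that fall into 4 groups. HS6ST1, an enzyme that sulphates heparan sulphate, was at 203 and 198 CPM in DMSO, 237 and 225 CPM after compound 4, 344 and 340 CPM after compound 5, and 190 and 191 CPM after compound 6. The order of its groups was that of CYP3A4. Among the 9 genes themselves, r with CYP3A4 was 0.853 for POR, 0.381 for CYP2B6, 0.132 for CYP3A5, −0.259 for CYP3A7 and −0.595 for NR1I2.

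**Figure D4:**
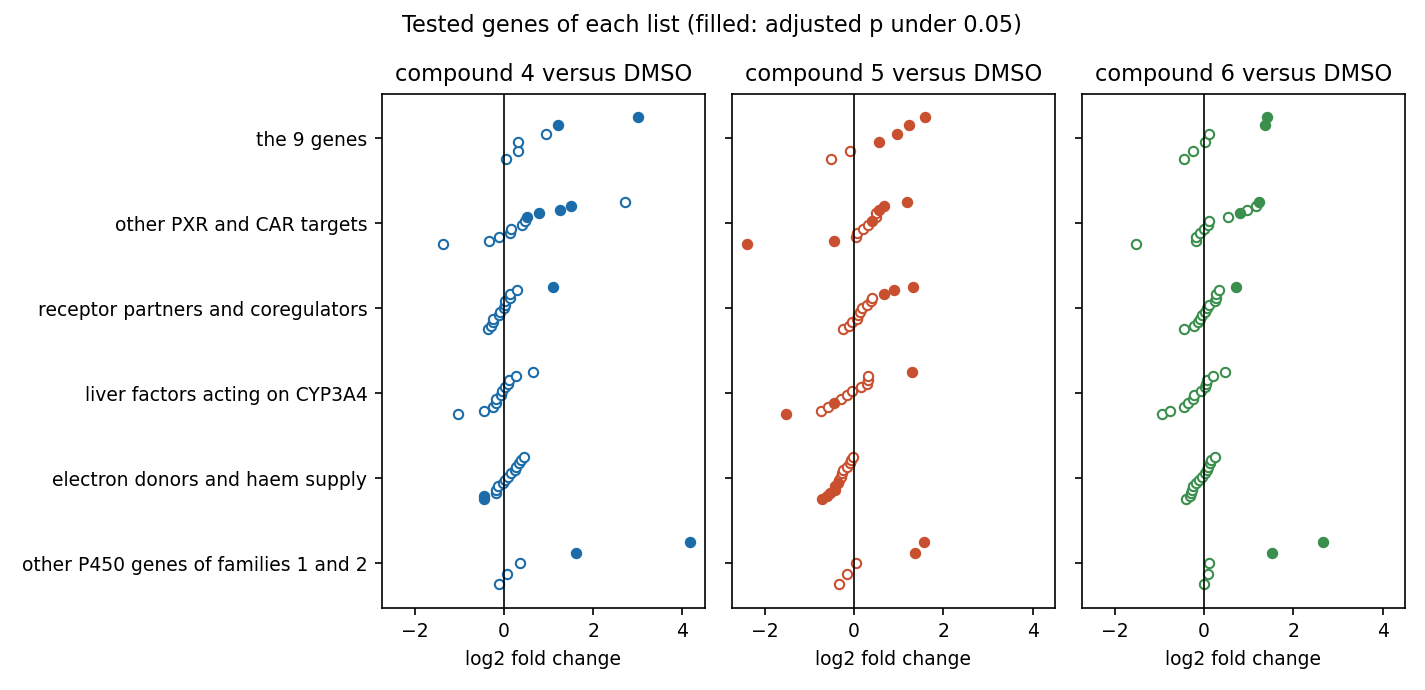
Log2 fold change against DMSO (horizontal axis, 1 panel per compound) of every tested gene of 6 lists, with 1 point per gene, filled where the edgeR adjusted p was under 0.05. The electron donor and haem list lies below 0 after compound 5, with 6 of 14 genes filled, and the other targets hold filled points on both sides of 0 only in the compound 5 panel.

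Other known targets of PXR and CAR were mixed. Of 12 tested of 19 listed, 4 rose after compound 4, 4 rose and 2 fell after compound 5, and 2 rose after compound 6, and the list medians were 0.44, 0.36 and 0.098. UGT1A3 passed the filter on low counts only through the compound 4 samples (18 and 12 counts), where it was highest. Its change there, the largest of the list (2.72), was not called, and its place among the 12 and in the median after compound 4 is a description. Of all genes tested, 6.5% rose after compound 4, 13.9% rose and 14.2% fell after compound 5, and 2.8% rose after compound 6. Over this and the next 4 lists together, the calls after compound 5 numbered 20, and 8, 13, 11 and 9 without replicate 1 or 2 of compound 5 or DMSO replicate 1 or 2. Those after compound 4 numbered 9, and 5 without DMSO replicate 2 and 14 without replicate 1 of compound 4. ABCC2, the canalicular exporter of conjugates, was at 575 and 634 CPM in DMSO, 1109 and 961 CPM after compound 4, 1375 and 1383 CPM after compound 5, and 946 and 1173 CPM after compound 6. It rose after each compound, by 0.78, 1.19 and 0.81 for compounds 4, 5 and 6 (adjusted p = 0.0035, 2.03e-04 and 0.0088, edgeR). ABCC3, the exporter on the blood side, was at 70.3 and 67.1 CPM in DMSO, 163 and 167 CPM after compound 4, 83.9 and 86.5 CPM after compound 5, and 140 and 184 CPM after compound 6. It rose after compound 4 (1.27, adjusted p = 4.42e-04, edgeR) and after compound 6 (1.24, adjusted p = 0.0043, edgeR). Without DMSO replicate 2 no gene of the pathway and P450 lists was called after compound 6, so that the calls of ABCC2 and ABCC3 with that compound were lost. ABCB1, the drug exporter P-glycoprotein, rose after compound 5 (0.67, adjusted p = 0.0060, edgeR). UGT1A1, which conjugates bilirubin, rose after compound 4 (1.49, adjusted p = 0.0487, edgeR) from 3.05 and 0.904 CPM to 5.81 and 5.07 CPM, and it shares exons with the other UGT1A genes, so its counts are uncertain. The 2 that fell after compound 5 were CES2, a carboxylesterase (−0.44, adjusted p = 0.0070, edgeR), and GSTA1, a glutathione transferase (−2.40, adjusted p = 0.0182, edgeR), which was at 1.28 and 1.89 CPM in DMSO and under 1 CPM in every treated sample. GSTA1 passed the filter on low counts only through the DMSO samples, where it was highest, so that its fall and its place in that count are a description.

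Of the partners and coregulators of the receptors, 13 of 14 listed were tested. After compound 4 1 of them rose, where 6.5% of all genes did, after compound 5 3 rose, where 13.9% did, and after compound 6 1 rose, where 2.8% did, and none was called lower. NR0B2, the repressor SHP, was at 76.5 and 70.4 CPM in DMSO and at 148 and 166, 171 and 194, and 108 and 134 CPM after compounds 4, 5 and 6. It was called after every compound, by 1.09, 1.31 and 0.73 (adjusted p = 0.0010, 1.55e-04 and 0.0159, edgeR), the last of which was lost without DMSO replicate 2. PPARGC1A, a coactivator, rose after compound 5 (0.90, adjusted p = 0.0018, edgeR). RXRA, the partner of both receptors, stood at 80.6 and 80.1 CPM in DMSO and between 67.7 and 82.1 CPM in the treated samples.

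Of 12 liver transcription factors known to act on CYP3A4, 1 rose and 2 fell after compound 5, where 13.9% of all genes tested rose and 14.2% fell, and none was called after compound 4 or 6. CEBPB rose (1.31, adjusted p = 0.0070, edgeR), from 72.4 and 61.4 CPM to 112 and 218 CPM. DBP, a clock-controlled activator of P450 genes, fell by 1.53 (adjusted p = 0.0205, edgeR), from 3.54 and 2.38 CPM to 1.01 and 1.02 CPM. CEBPA was at −0.45 (adjusted p = 0.0489, edgeR; adjusted p = 0.0505 with the replicate block). HNF4A, a main activator of liver P450 genes, was between 320 and 406 CPM in all samples.

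Of 14 other genes listed for the electron and haem supply of P450 enzymes, all tested, 6 fell after compound 5 and 2 after compound 4, none was called after compound 6, and no gene of this list was called higher. ALAS1, the first enzyme of haem synthesis, was counted with the targets of the receptors and not in this list, and it rose after compound 5 (0.40, SE 0.11, adjusted p = 0.0200, edgeR), from 61.9 and 53.3 CPM to 75.1 and 76.9 CPM. The list median after compound 5 was −0.32, and of all genes tested 14.2% were called lower with that compound and 5.42% after compound 4. ALAD, an early enzyme of haem synthesis, was at 34.6 and 32.5 CPM in DMSO and 19.4 and 21.3 CPM after compound 5 (−0.72, adjusted p = 0.0040, edgeR). CYB5B, a cytochrome b5, went from 200 and 194 CPM to 133 and 124 CPM (−0.61, adjusted p = 0.0037, edgeR). UROS, a later enzyme of the pathway, fell by 0.54 (adjusted p = 0.0277, edgeR). CPOX, also of haem synthesis, fell by 0.42 (adjusted p = 0.0133, edgeR), and HMOX1, which breaks haem down, by 0.36 (adjusted p = 0.0256, edgeR). PGRMC1, a haem protein that binds P450 enzymes, fell by 0.46 after compound 4 (adjusted p = 0.0225, edgeR) and by 0.42 after compound 5 (adjusted p = 0.0165, edgeR).

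Of 17 other P450 genes of families 1 and 2, 5 were tested, and CYP1A1 and CYP2S1 rose after every compound, where 6.5%, 13.9% and 2.8% of all genes tested rose, with both calls for compound 6 lost without DMSO replicate 2. CYP1A1, the main target of the aryl hydrocarbon receptor, was at 4.14 and 3.21 CPM in DMSO, 69.2 and 62.1 CPM after compound 4, 11.5 and 7.46 CPM after compound 5, and 16.5 and 29.5 CPM after compound 6. Its change after compound 4 was 4.17 (SE 0.30, adjusted p = 2.13e-04, edgeR). CYP2S1, which the same receptor induces, stood at 31.4 and 28.2 CPM in DMSO and reached 95.5 and 87.1 CPM after compound 4 (1.62, adjusted p = 7.58e-04, edgeR) and 92.0 and 83.4 CPM after compound 5. Of 10 genes listed as neighbours of the CYP3A genes on chromosome 7, 3 were tested. The listed pseudogene CYP3A54P (chr7:4511959-4512033) lies far from the others and was not tested. Of the tested genes 1, AZGP1, rose after compound 4 (0.52, adjusted p = 0.0221, edgeR) and compound 5 (0.37, adjusted p = 0.049966, edgeR), where 6.5% and 13.9% of all genes did.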

How the data were processed

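Directional RNA libraries of 8 samples of HepG2 cells with a CYP3A4 transgene were sequenced, 2 per group. Per the study's methods and the submitters' processing notes, reads were checked with FastQC (0.12.0), quantified with Salmon (1.5.0) against GENCODE 38 transcripts and summarized to genes with tximeta, and the notes also name DESeq2 (1.38.3) and GRCh38. The deposited values are estimated counts per gene, held as whole numbers and not scaled for depth. The strand setting of Salmon is not given in the sources used here. Symbols came from a table of gene identifiers (60089 of 60230 matched), positions and lengths from GENCODE 29, and upstream sequence from RefSeq, which covered 8 of the 9 genes.

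The main model was fitted with edgeR (4.0.16, R 4.3.3): TMM scaling, filterByExpr with a minimum count of 10, and a quasi-likelihood F-test with 4 groups over all 8 samples, so that all groups share 1 estimate of the spread. Adjusted p-values are from edgeR over the 13404 genes tested unless limma (3.58.1) or DESeq2 (1.42.0) is named. Changes with a p missing the threshold are given with their interval. The labels give replicates 1 and 2 as day 1 and day 2 and do not otherwise say whether they were separate cultures, so p-values measure the spread between these samples, which may be technical. The alternatives were DESeq2, RLE, upper-quartile and library-size scaling, limma voom, no filter, at least 10 counts in every sample, a replicate block, only the groups compared, an adjusted p under 0.01, and leaving out each sample in turn. In these last fits a lone sample was taken to vary like the other groups.

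Because the numbers are days, same-numbered samples were taken as pairs in the replicate block. The main model did not pair them. Deviations of same-numbered samples from their group means correlated between −0.083 and 0.16 across genes. The members and the gene lists were chosen with earlier results of these data known. From each list, at most 4 called genes with the largest change against DMSO and a mean of at least 1 CPM are named. One result under this rule is not reported here. RXRA, HNF4A, ALAS1, CPOX, HMOX1, CES2 and GSTA1 were named after their values were seen.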

Additional observations from a re-analysis of the deposited data

How the results depend on the processing

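Of the calls of the 6 tested genes, the replicate block changed none. With the block, 1549, 3676 and 499 of all genes were called with compounds 4, 5 and 6 against DMSO, where 1598, 3763 and 590 were called without it, and the change of the summed CYP3A counts with compound 5 was 0.97 (adjusted p = 0.0017, edgeR). The counts of called genes among the 6 moved as follows. The shares of all genes under these other settings are not given here, and 22717 genes were tested without the filter, so these counts are a description. For compound 4 against compound 6 they were 2 with DESeq2 and 2 without the filter, where edgeR with the filter gave 0. At an adjusted p under 0.01 they were 1 with compound 4, 3 with compound 5, 0 with compound 6, and 1 each for compound 5 against compounds 4 and 6. With limma voom the count with compound 6 was 1, CYP3A5 no longer being called. Without 1 library in turn they ran from 1 to 3 with compound 4, 3 to 4 with compound 5, 0 to 2 with compound 6, and 1 to 2 for compound 5 against compounds 4 and 6.

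Called genes of the pathway and P450 lists, 9, 20 and 5 with compounds 4, 5 and 6 in the main results, numbered 5 with compound 4 and 10 with compound 5 at an adjusted p under 0.01, and 15 with compound 4 and 9 with compound 6 without the filter. For the counts of these lists, too, the shares of all genes under the other settings are not given here. Without 1 library they ran from 5 to 14, 8 to 24 and 0 to 7 with compounds 4, 5 and 6, with 14 without replicate 1 of compound 4, 8 without replicate 1 of compound 5, and 0 for compound 6 without DMSO replicate 2. The summed CYP3A difference between compounds 4 and 6 was called with DESeq2 (0.59, adjusted p = 0.0108) and without the filter (0.59, adjusted p = 5.21e-04, edgeR), and its change with compound 4 without the filter (0.37, adjusted p = 0.0288, edgeR). Its difference between compounds 5 and 4 was not called with only those groups in the fit (0.61, adjusted p = 0.0591, edgeR). Without 1 library that difference ran from 0.41 to 0.81, and the change with compound 4 from 0.16 to 0.58.

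Among the 6 genes, signs turned only where no call stood in the main results. With library size alone NR1I2 was at −6.58e-04 with compound 4 and POR at −0.0049 with compound 6, and with DESeq2 CYP3A7 was at 0.058 for compound 5 against compound 6. Without 1 library in turn, compound 4 minus compound 6 ran from −0.34 to 0.040 for CYP2B6 and from −0.20 to 0.043 for NR1I2, both turning without replicate 2 of compound 6. Compound 5 minus compound 6 ran from −0.16 (without replicate 1 of compound 5) to 0.52 for CYP2B6, from −0.56 to 0.14 (without replicate 2 of compound 5) for CYP3A5 and from −6.10 to 1.14 for CYP3A7, which turned without replicate 2 of either compound (1.01 and 1.14). CYP3A7 ran from −6.54 to 0.55 with compound 5 and from −1.63 to 0.13 with compound 6, NR1I2 from −0.016 to 0.11 with compound 4, and POR from −0.025 to 0.071 with compound 6. The cause of these changes was not tested. Depth limits CYP3A43, NR1I3 and CYP2C8, which were at 5 counts or fewer in every sample, and CYP3A7. CYP3A7 could not be given a value with at least 10 counts in every sample.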
